A study of Mus musculus with 9 samples.

Results

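Chemokines and their receptors were followed in RNA-seq of 4T1 mammary tumors from mice on a low-fat or a high-fat diet. Membership in this set was decided by symbol: Ccl, Cxcl, Cx3cl, Xcl, Ccr, Cxcr, Cx3cr, or Xcr followed by a digit. This rule found 59 of the 22609 listed genes, 39 ligands and 20 receptors. Of these, 33 genes, 24 ligands and 9 receptors, passed the filter on low counts and were tested, and 26 were not. 4T1 is a triple-negative mammary carcinoma line derived from BALB/c mice, and its cells were implanted orthotopically in mice of that strain after 6 weeks of diet. The LFD group was fed a diet with 10 kcal% fat and the HFD group a diet with 60 kcal% fat, and both received the vehicle, 0.3% hydroxy propyl cellulose. The HFD + EC359 group was fed the 60 kcal% fat diet and received EC359, an inhibitor of the leukemia inhibitory factor receptor (LIFR), at 5 mg/kg on 5 days per week. The RNA came from tumor tissue, so host leukocytes and stroma contributed to the RNA beside the carcinoma cells of the 1 line. Each group had 3 libraries, labelled by replicate number only. Nothing in the labels ties a library to an animal, so the p-values measure the spread between these libraries, which may be technical.

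Chemokines are small secreted proteins that bind receptors that cross the membrane repeatedly on leukocytes and other cells and guide their movement along a gradient. They are named by the spacing of their first cysteines (CC, CXC, CX3C, and XC), and most receptors bind several ligands of the same class. In mammary tumors, CCL2 and its receptor CCR2 are known for the recruitment of monocytes, the CXCR2 ligands for neutrophils, the CXCR3 ligands for T and NK cells, and CXCL12 for stromal retention and migration of CXCR4-positive cells.

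Several ligands lie next to each other in the genome, and 5 of them are shown by the 250 bases before their transcription start, from RefSeq on GRCm38.p6. Cxcl3, Cxcl1, and Cxcl2 are shown because these neighbors share a run of bases, and Cxcl9 and Cxcl10 because they are neighbors with a common receptor and log2 fold changes of 2.35 and 0.52 with HFD. Capitals mark matches, on either strand, to the NF-kB consensus (NF-kB drives many inflammatory genes), to the interferon-stimulated response element (ISRE, searched as GAAA, 2 free bases, and GAAA), or to the STAT element GAS (letters TTCNNNGAA).
Cxcl3, chr5:90785851-90786100, plus strand: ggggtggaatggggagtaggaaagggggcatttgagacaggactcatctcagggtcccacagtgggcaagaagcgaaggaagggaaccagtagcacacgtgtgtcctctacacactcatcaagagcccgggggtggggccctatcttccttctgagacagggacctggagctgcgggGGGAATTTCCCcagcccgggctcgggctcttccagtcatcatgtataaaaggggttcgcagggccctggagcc
Cxcl1, chr5:90890995-90891244, plus strand: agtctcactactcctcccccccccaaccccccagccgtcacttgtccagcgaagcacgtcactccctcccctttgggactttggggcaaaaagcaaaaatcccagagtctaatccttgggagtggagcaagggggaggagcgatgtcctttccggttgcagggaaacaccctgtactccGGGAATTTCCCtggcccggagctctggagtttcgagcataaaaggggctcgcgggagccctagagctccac
Cxcl2, chr5:90903649-90903898, plus strand: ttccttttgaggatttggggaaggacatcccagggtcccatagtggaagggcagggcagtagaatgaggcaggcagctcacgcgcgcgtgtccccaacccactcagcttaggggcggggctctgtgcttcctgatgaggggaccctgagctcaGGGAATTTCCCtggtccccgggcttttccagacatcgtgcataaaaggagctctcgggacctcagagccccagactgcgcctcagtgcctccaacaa
Cxcl9, chr5:92328080-92328329, minus strand: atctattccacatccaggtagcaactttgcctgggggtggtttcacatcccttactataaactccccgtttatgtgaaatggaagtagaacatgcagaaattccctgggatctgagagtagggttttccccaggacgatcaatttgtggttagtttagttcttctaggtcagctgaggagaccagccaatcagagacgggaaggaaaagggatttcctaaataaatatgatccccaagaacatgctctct
Cxcl10, chr5:92348890-92349139, minus strand: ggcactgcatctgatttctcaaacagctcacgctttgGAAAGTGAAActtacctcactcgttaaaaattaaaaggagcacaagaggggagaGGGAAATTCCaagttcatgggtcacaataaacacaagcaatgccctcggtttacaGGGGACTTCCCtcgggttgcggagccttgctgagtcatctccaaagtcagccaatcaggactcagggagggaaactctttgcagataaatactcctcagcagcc

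The same 11 bases, GGGAATTTCCC, stood 73 to 63 bases before the start of Cxcl3, 71 to 61 before Cxcl1, and 97 to 87 before Cxcl2. They are 2 overlapping matches to the NF-kB consensus. Cxcl10 held NF-kB matches at 159 to 150 and at 104 to 94 bases before the start, the latter 2 overlapping matches, and an ISRE match at 213 to 204. The window of Cxcl9 held none of the 3 motifs. A window was found for 43 of the 59 genes. The NF-kB consensus matched in 10 of these 43, against 7.25% of all 32851 windows of this length, GAS in 4 (all windows, 7.02%), and ISRE in 3 (all windows, 2.98%). A gene counted if any of its windows matched, and some genes had several, whereas the shares are of single windows, so the measures differ. Among the 23 tested genes with a window, 6 had an NF-kB match (Cxcl1, Cxcl2, Cxcl3, Cxcl10, Ccl9, and Ccr1). Cxcl14 had the only GAS match of these 23 and, with Cxcl10, an ISRE match. A match describes letters in the window and not a bound site, and a window without a match can still hold sites that differ from these patterns.

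The library totals ran from 5085357 to 9751201 counts, lowest in the LFD group, and 3 counts, the limit that a count of 0 allows, were 0.300 to 0.614 CPM (counts per 1000000 of the scaled library total) for counting error alone. Over all tested genes, libraries of a group had a biological coefficient of variation of 3.63%. LFD replicate 1 stood apart, with a mean chi-square per gene of 2.99 and 2.46 against the other LFD libraries where all other pairs within a group had 1.35 to 1.55. Without it, 16 of the tested chemokine genes were higher and 9 lower with HFD, and calls that change are given beside each gene. The 59 genes together summed to 619 to 712 CPM in the LFD group, 860.3 to 887 CPM in the HFD group, and 995 to 1010 CPM in the HFD + EC359 group, so the 3 groups did not overlap. The ligands summed to 507 to 566, 613 to 632, and 711 to 722 CPM, and the receptors to 112 to 145, 247 to 259, and 284 to 288 CPM, in the same order of groups. By length, Ccl8 and Ccl2 had the highest levels, with means over all libraries of 130.0 and 127 CPM per kb of exon. Ccl8 was the higher in the LFD group (134 ± 15.5 against 96.9 ± 11 CPM per kb, SD, n = 3), and Ccl2 in the HFD group (113 ± 6.07 against 105 ± 5.92) and the HFD + EC359 group (171 ± 5.84 against 151 ± 4.06). They were followed by Ccl6 with 51.2, Ccl7 with 35.8, and Cxcl16 with 30.4 CPM per kb, and all other tested genes lay between 0.701 (Ccl27a) and 30.2 (Cxcl5) CPM per kb. The 5 highest were all ligands, and the highest receptor by length was Cx3cr1 with 15.7 CPM per kb.

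**Figure D1:**
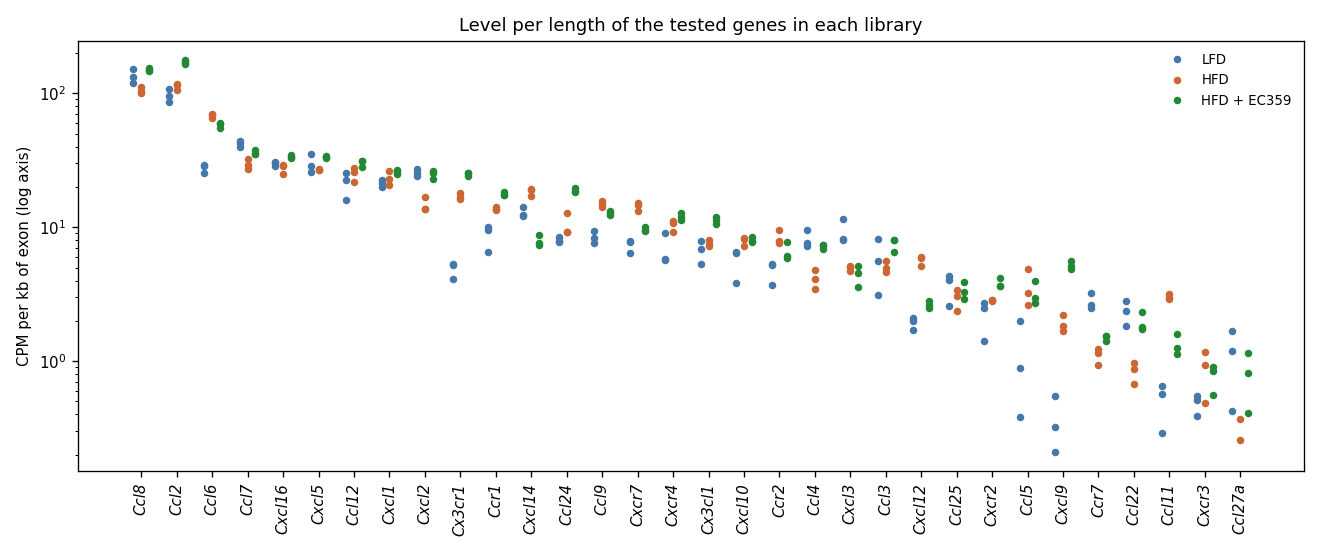
Level per length of 32 tested genes in each of the 9 libraries, as CPM per kb of exon on a log axis. Genes run from the highest mean over all libraries (Ccl8, 130.0 CPM per kb) to the lowest (Ccl27a, 0.701 CPM per kb), points are libraries colored by group, and 1 HFD library with 0 counts of Ccl27a is not drawn.

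In the HFD group against the LFD group, 24 of the 33 tested genes passed an adjusted p of 0.05, 16 higher and 8 lower. Of all 13366 genes tested, 51.8% passed, 26% higher and 25.8% lower. The stricter call of the study's methods, a fold over 2 with an adjusted p under 0.01, was met by 6 higher genes (Ccl11, Cxcl9, Cx3cr1, Ccl5, Cxcl12, and Ccl6) and 3 lower genes (Ccl27a, Ccl22, and Ccr7). Of all genes 5.71% did so, 3.03% higher and 2.68% lower. The median log2 fold change was 0.33 over the 33 genes, 0.15 over the ligands, 0.79 over the receptors, and 0.01 over all genes. These medians and the sums above include a trend of each library with GC content and length, described below. With that trend removed, the 33 genes shifted by a median of -0.13, and 15 were higher and 9 lower with HFD. In the HFD + EC359 group against the HFD group, 22 genes passed an adjusted p of 0.05, 15 higher and 7 lower, where 26.6% of all genes passed, 12.7% higher and 13.9% lower. Past the fold of 2 with an adjusted p under 0.01 were 2 higher genes (Cxcl9 and Ccl22) and 3 lower genes (Cxcl14, Ccl11, and Cxcl12), against 3.43% of all genes (2.06% higher and 1.38% lower). The median log2 fold change was 0.28 over the 33 genes and 0.01 over all genes. With the GC and length trend removed, the 33 genes shifted by a median of -0.07 with EC359, and 13 were higher and 7 lower. Both comparisons contain the HFD libraries, so a gene that is high or low in these libraries tends to appear in both with opposite signs. The values of each comparison are given side by side for that reason. The libraries of the compared groups did not overlap for 24 of the 33 genes with HFD and 26 with EC359, where this held for 57.1% and 41.3% of all genes.

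**Figure D2:**
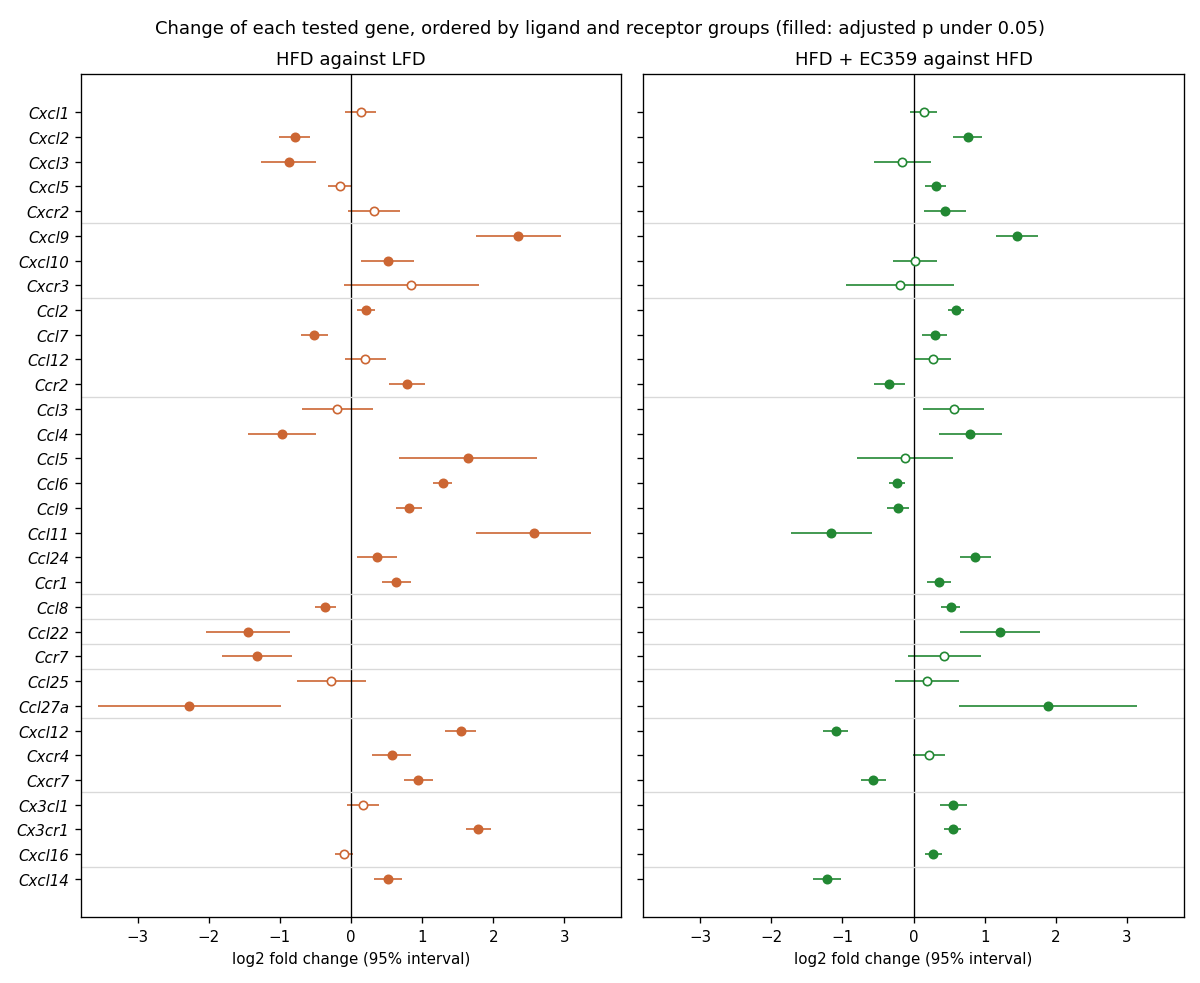
Log2 fold change of 32 tested genes in HFD against LFD and in HFD + EC359 against HFD, with bars of the 95% interval and grey lines between the groups of ligands and receptors. Filled points passed an adjusted p of 0.05, 23 on the left and 22 on the right, and the values run from -2.27 (Ccl27a) to 2.57 (Ccl11) on the left.

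The receptor Cx3cr1, which marks patrolling monocytes and tissue macrophages, had the largest log2 fold change of the 9 tested receptors in the diet comparison. It was at 15.3, 19.8, and 19.6 CPM with LFD, 63, 60.8, and 67.5 CPM with HFD, and 94.4, 95.3, and 90.5 CPM with HFD + EC359. Each group lay wholly above the preceding one. Cx3cr1 was 3.46-fold higher with HFD (log2 fold change 1.79, SE 0.088, adjusted p = 1.89e-17) and rose a further 1.46-fold with EC359 (log2 fold change 0.55, SE 0.0613, adjusted p = 1.41e-08). Its only ligand, the membrane-anchored Cx3cl1, was at 21 ± 3.99 CPM with LFD, 23.9 ± 1.14 CPM with HFD, and 35.3 ± 2.02 CPM with HFD + EC359 (mean ± SD, n = 3). Its change with HFD did not pass the test (log2 fold change 0.17, adjusted p = 0.207), and it rose with EC359 (log2 fold change 0.56, SE 0.0968, adjusted p = 3.73e-05). Cx3cl1 passed the diet comparison (0.38, adjusted p = 0.00701) once the trend of each library with GC content was removed. Cxcl16, a membrane-bound ligand and scavenger receptor of macrophages, was at 75.1, 74.4, and 69.8 CPM with LFD, 71.6, 70.6, and 61.3 CPM with HFD, and 80.5, 82.3, and 84.1 CPM with HFD + EC359. The HFD and LFD libraries of Cxcl16 overlapped (log2 fold change -0.10, adjusted p = 0.174), and all 3 HFD + EC359 libraries lay above both (against HFD, 0.28, adjusted p = 0.000509). Its receptor Cxcr6 had at most 11 counts in a library and was not tested. Cxcl16 overlaps the gene Zmynd15 on the opposite strand, and the counting used strand.

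The ligands of CCR2, the receptor of inflammatory monocytes, and the receptor itself did not move together. Ccl2, the main monocyte attractant, was at 69.8, 87.4, and 77 CPM with LFD, 85.6, 95, and 92.8 CPM with HFD, and 133, 142, and 138 CPM with HFD + EC359. The HFD + EC359 libraries stood above all others, and the HFD and LFD libraries overlapped. Ccl2 rose 1.51-fold with EC359 (log2 fold change 0.60, SE 0.0557, adjusted p = 2.50e-10) and 1.16-fold with HFD (log2 fold change 0.21, SE 0.0644, adjusted p = 0.00624). The change with HFD was 0.00 (adjusted p = 0.958) with the GC trend removed. Ccl7, its neighbor, was at 31.7, 35, and 33.8 CPM with LFD, 23.1, 21.7, and 25.6 CPM with HFD, and 30.0, 28.3, and 28.2 CPM with HFD + EC359, highest in the LFD libraries. It fell with HFD (log2 fold change -0.52, SE 0.0959, adjusted p = 3.16e-05) and rose with EC359 (log2 fold change 0.30, SE 0.0912, adjusted p = 0.0146). That rise did not pass with the GC trend removed (0.17, adjusted p = 0.189) or, with values of 0.24 to 0.28 and adjusted p of 0.0552 to 0.0955, without HFD replicate 1, HFD replicate 2, or HFD + EC359 replicate 1. Ccl12, a CCR2 ligand of mice, averaged 11.5, 13.4, and 16.2 CPM in the 3 groups and passed in neither comparison (0.20, adjusted p = 0.265 with HFD, and 0.27, adjusted p = 0.114 with EC359). Ccr2 was at 17.1 ± 3.27 CPM with LFD, 29.9 ± 3.76 CPM with HFD, and 23.5 ± 3.61 CPM with HFD + EC359 (mean ± SD, n = 3). It rose with HFD (log2 fold change 0.79, SE 0.129, adjusted p = 5.19e-06) and was lower with EC359 (log2 fold change -0.34, SE 0.111, adjusted p = 0.0219), a call that ended without HFD replicate 3 (-0.24, adjusted p = 0.164), HFD + EC359 replicate 1 (-0.27, adjusted p = 0.12), or HFD + EC359 replicate 2 (-0.29, adjusted p = 0.098). Ccl8, a ligand of CCR8 in mice, was at 61.2, 76.9, and 67.3 CPM with LFD, 51.3, 52.7, and 57.1 CPM with HFD, and 76.7, 79.4, and 75.4 CPM with HFD + EC359. It was lowest in the HFD libraries, 1.28-fold below LFD (log2 fold change -0.36, SE 0.0728, adjusted p = 0.000101), and 1.44-fold higher with EC359 than with HFD alone (log2 fold change 0.52, SE 0.0669, adjusted p = 2.26e-07).

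Of the 8 other CC ligands of macrophages and eosinophils (Ccl3, Ccl4, Ccl5, Ccl6, Ccl9, Ccl11, Ccl24, and Ccl26), 7 were tested. With HFD 5 rose and 1 fell, where 26% of all tested genes rose and 25.8% fell. With EC359 2 rose and 3 fell, where 12.7% of all tested genes rose and 13.9% fell. Ccl6, a mouse CC ligand made by macrophages, was at 36.2, 41.1, and 41.9 CPM with LFD, 99.4, 93.7, and 99.9 CPM with HFD, and 83.9, 78.6, and 86.4 CPM with HFD + EC359. It rose 2.44-fold with HFD (log2 fold change 1.29, SE 0.0674, adjusted p = 9.53e-17) and fell by a small amount with EC359 (log2 fold change -0.23, SE 0.055, adjusted p = 0.00152), with no overlap in either comparison. Its neighbor Ccl9, another mouse myeloid ligand, was at 25.4 ± 2.86 CPM with LFD, 44.8 ± 2.47 CPM with HFD, and 38.3 ± 1.08 CPM with HFD + EC359 (mean ± SD, n = 3). It rose with HFD (log2 fold change 0.81, SE 0.0925, adjusted p = 7.42e-09), and the fall with EC359 (-0.22, adjusted p = 0.035) passed in none of the fits without HFD replicate 2, HFD replicate 3, or any 1 of the HFD + EC359 libraries (values -0.25 to -0.18, adjusted p 0.0508 to 0.17). Ccl5 (RANTES), a T cell and macrophage product, had few reads, 1, 3, and 6 counts in the LFD libraries, 11, 13, and 19 in the HFD libraries, and 12, 14, and 21 in the HFD + EC359 libraries. This was 0.205, 0.471, and 1.06 CPM with LFD, 1.39, 1.7, and 2.59 CPM with HFD, and 1.46, 1.58, and 2.1 CPM with HFD + EC359, and the lowest HFD library exceeded the highest LFD library. The ratio of HFD to LFD in counts per scaled total was 3.18 with a 95% exact interval of 1.57 to 7.09 (log2 fold change 1.64, SE 0.495, adjusted p = 0.00598) and rose to a log2 fold change of 2.35 without LFD replicate 3. That of HFD + EC359 to HFD was 0.923 with a 95% exact interval of 0.598 to 1.43 (adjusted p = 0.847). Ccl11 (eotaxin), the eosinophil attractant, also had few reads, 3, 2, and 4 counts in the LFD libraries, 25, 24, and 25 in the HFD libraries, and 10, 12, and 17 in the HFD + EC359 libraries, or 0.614, 0.314, and 0.705 CPM with LFD, 3.15, 3.14, and 3.41 CPM with HFD, and 1.21, 1.35, and 1.7 CPM with HFD + EC359. The 3 groups were separated. The ratio was 6.08 with a 95% exact interval of 3.04 to 13.8 for HFD to LFD (log2 fold change 2.57, SE 0.415, adjusted p = 4.33e-06) and 0.445 with a 95% exact interval of 0.294 to 0.665 for HFD + EC359 to HFD (log2 fold change -1.16, SE 0.291, adjusted p = 0.00273).

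Ccl24, the other eotaxin measured, had a different order, 10.8, 10.2, and 10.0 CPM with LFD, 11.9, 11.9, and 16.4 CPM with HFD, and 24, 25.4, and 23.7 CPM with HFD + EC359. It rose 1.83-fold with EC359 (log2 fold change 0.87, SE 0.112, adjusted p = 2.56e-07). Its change with HFD (0.37, adjusted p = 0.0348) passed but did not hold without LFD replicate 2 (0.35, adjusted p = 0.0858), LFD replicate 3 (0.35, adjusted p = 0.0903), or HFD replicate 3 (0.20, adjusted p = 0.285). Ccl26, the last eotaxin of the list, had no count in any library, and Ccr3, the eotaxin receptor, had at most 6 counts. No marker of eosinophils was tested, since all 4 were below the filter and Epx was at 0 in every library. Ccl3 and Ccl4, neighboring macrophage inflammatory proteins, averaged 4.43, 4.01, and 5.93 CPM and 5.37, 2.71, and 4.73 CPM in the LFD, HFD, and HFD + EC359 groups. Ccl4 was 1.96-fold lower with HFD (log2 fold change -0.97, SE 0.242, adjusted p = 0.00113) and rose with EC359 (log2 fold change 0.80, SE 0.227, adjusted p = 0.00789), except without HFD replicate 1 (0.68, adjusted p = 0.0557). Ccl3 passed in neither (-0.19, adjusted p = 0.557 with HFD, 0.56, adjusted p = 0.0581 with EC359), but with EC359 it did without LFD replicate 1 or LFD replicate 2 (0.56 in both, adjusted p = 0.027 and 0.0395). Ccr1, the receptor for several of these ligands on myeloid cells, was at 24.7 ± 5.5 CPM with LFD, 39 ± 0.855 CPM with HFD, and 50.0 ± 1.48 CPM with HFD + EC359 (mean ± SD, n = 3) and rose in both comparisons (0.64, adjusted p = 5.30e-06 with HFD, and 0.36, adjusted p = 0.00201 with EC359).

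The CXCR3 ligands are the classical interferon-induced chemokines, made by macrophages and other cells that meet interferon-gamma. Cxcl9 had 3, 6, and 9 counts in the LFD libraries, 42, 37, and 47 in the HFD libraries, and 134, 126, and 149 in the HFD + EC359 libraries. Its level was 0.614, 0.942, and 1.59 CPM with LFD, 5.3, 4.85, and 6.41 CPM with HFD, and 16.3, 14.2, and 14.9 CPM with HFD + EC359. The groups rose in steps without overlap. The ratio was 5.17 with a 95% exact interval of 3.15 to 9.02 for HFD to LFD (log2 fold change 2.35, SE 0.305, adjusted p = 9.67e-08) and 2.74 with a 95% exact interval of 2.24 to 3.38 for HFD + EC359 to HFD (log2 fold change 1.45, SE 0.153, adjusted p = 4.29e-09). Cxcl10, its neighbor and the ligand of the same receptor, was at 5.97 ± 1.64 CPM with LFD, 8.4 ± 0.611 CPM with HFD, and 8.49 ± 0.374 CPM with HFD + EC359 (mean ± SD, n = 3). The change of Cxcl10 with HFD (0.52, adjusted p = 0.0236) did not pass without LFD replicate 2 (0.27, adjusted p = 0.267), HFD replicate 2 (0.48, adjusted p = 0.0657), or HFD replicate 3 (0.48, adjusted p = 0.0637), with the GC trend removed (0.39, adjusted p = 0.0987), or in DESeq2 (0.51, adjusted p = 0.0659), and with EC359 it was 0.02, adjusted p = 0.953. Cxcl11, the remaining ligand, had 5, 22, and 32 counts summed over the 3 libraries of the LFD, HFD, and HFD + EC359 groups and was below the filter. The receptor Cxcr3, found on activated T and NK cells, was at 0.776, 1.39, and 1.24 CPM on average and passed in neither comparison (0.85, adjusted p = 0.142 with HFD, and -0.19, adjusted p = 0.768 with EC359).

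Of the neutrophil attractants that bind CXCR2 and their receptors, 5 of 7 were tested. With HFD 2 fell and none rose, where 25.8% of all tested genes fell and 26% rose. With EC359 3 rose and none fell, where 12.7% of all tested genes rose and 13.9% fell. Cxcl3, Cxcl2, and Cxcl1 are those with the shared promoter bases shown above. Cxcl3 was at 11.7, 8.16, and 8.28 CPM with LFD, 4.79, 5.11, and 5.18 CPM with HFD, and 3.64, 5.19, and 4.6 CPM with HFD + EC359. It fell 1.84-fold with HFD (log2 fold change -0.88, SE 0.195, adjusted p = 0.000325) and the HFD + EC359 libraries overlapped those of HFD (-0.16, adjusted p = 0.631). Cxcl2 (MIP-2) was at 27.6 ± 1.59 CPM with LFD, 15.9 ± 1.89 CPM with HFD, and 26.9 ± 1.98 CPM with HFD + EC359 (mean ± SD, n = 3). It fell 1.73-fold with HFD (log2 fold change -0.79, SE 0.111, adjusted p = 4.03e-07) and was 1.69-fold higher with EC359 than with HFD alone (log2 fold change 0.76, SE 0.103, adjusted p = 6.84e-07). Cxcl1 (KC) was at 20.2 ± 1.09 CPM with LFD, 22.2 ± 2.63 CPM with HFD, and 24.6 ± 0.77 CPM with HFD + EC359 and passed in neither comparison (0.13, adjusted p = 0.316 with HFD, and 0.15, adjusted p = 0.291 with EC359). Cxcl5 (LIX), the highest of these ligands by length, was at 49.5 ± 7.55 CPM with LFD, 44.8 ± 0.538 CPM with HFD, and 55.5 ± 0.763 CPM with HFD + EC359. It rose with EC359 (log2 fold change 0.31, SE 0.0772, adjusted p = 0.00257) but not with the GC trend removed (0.13, adjusted p = 0.185). With HFD it was at -0.16, adjusted p = 0.117, and it passed as lower without LFD replicate 1 (-0.24, adjusted p = 0.00995) and with the GC trend removed (-0.56, adjusted p = 1.5e-07). The receptor Cxcr2, the main chemokine receptor of neutrophils, averaged 6.73, 8.65, and 11.7 CPM. It rose with EC359 (0.44, adjusted p = 0.0297), but not without any 1 of the HFD libraries or HFD + EC359 replicate 3 (0.36 to 0.44, adjusted p 0.0719 to 0.151), and with HFD it was at 0.33, adjusted p = 0.142, which passed without LFD replicate 2 (0.51, adjusted p = 0.0498). Cxcr1 had at most 11 counts and Cxcl15 at most 1. The neutrophil marker list summed to 110.9 to 130.8 CPM in the LFD group, 144.3 to 155.4 in the HFD group, and 171.3 to 179.3 with HFD + EC359, with 3 of 7 tested markers higher with HFD and 3 higher and 1 lower with EC359. Its part in these values was not tested.

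CXCL12, made by fibroblasts, and both of its receptors rose with HFD. Cxcl12 was at 12.3, 14.3, and 15.2 CPM with LFD, 37.1, 42.4, and 42.7 CPM with HFD, and 18.9, 20.3, and 17.9 CPM with HFD + EC359. The HFD libraries stood apart above the others. Cxcl12 was 2.91-fold higher with HFD (log2 fold change 1.54, SE 0.108, adjusted p = 1.74e-13) and 2.14-fold lower with EC359 than with HFD alone (log2 fold change -1.10, SE 0.0926, adjusted p = 2.82e-11). Cxcr7 (Ackr3), which removes CXCL12 without G protein signaling, had the same order, 19 ± 2.09 CPM with LFD, 36.9 ± 2.73 CPM with HFD, and 24.9 ± 0.829 CPM with HFD + EC359 (mean ± SD, n = 3), and rose with HFD (log2 fold change 0.95, SE 0.102, adjusted p = 2.55e-09) and fell with EC359 (log2 fold change -0.57, SE 0.0891, adjusted p = 8.05e-06). Cxcr4, the signaling receptor, averaged 12.4, 18.8, and 21.8 CPM, rose with HFD (log2 fold change 0.57, SE 0.141, adjusted p = 0.001), and did not pass with EC359 (0.22, adjusted p = 0.167). Cxcl14, a ligand of epithelium and fibroblasts without an agreed receptor, was at 25.8, 22.6, and 22 CPM with LFD, 35.3, 34.5, and 31.1 CPM with HFD, and 16, 13.5, and 13.9 CPM with HFD + EC359. It rose 1.44-fold with HFD (log2 fold change 0.53, SE 0.1, adjusted p = 4.77e-05) and in the HFD + EC359 libraries lay below both other groups, 2.33-fold under HFD (log2 fold change -1.22, SE 0.0995, adjusted p = 1.20e-11). The fibroblast marker list summed to 6280 to 7589 CPM in the LFD group, 10610 to 11180 CPM in the HFD group, and 3231 to 3311 CPM in the HFD + EC359 group, and most of it came from Col1a1 and Col1a2. All 6 of its genes rose with HFD, where 26% of all tested genes did. With EC359, Col1a1 (-2.09, adjusted p = 1.36e-27), Col1a2 (-2.06, adjusted p = 1.20e-27), and Lum (-1.08, adjusted p = 1.74e-06) fell, Pdgfra rose (0.34, adjusted p = 1.43e-09), and Pdgfrb (-0.02, adjusted p = 0.785) and Dcn (-0.12, adjusted p = 0.22) did not pass. The endothelial list, 195.8 to 203.7, 350.5 to 378.9, and 295.5 to 310.7 CPM, was also highest in the HFD group, with 5 of 5 markers higher with HFD and 3 lower with EC359. Of all tested genes, 26% were higher with HFD and 13.9% lower with EC359. The part of these cells in the chemokine values was not tested. In tumor RNA, fewer cells of a type and less RNA per cell cannot be told apart.

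Ccl22, Ccr7, and Ccl27a, genes of dendritic, lymphoid, and epithelial cells with low levels here, fell with HFD. Ccl22, a dendritic cell and macrophage ligand that attracts regulatory T cells through CCR4, was at 4.3, 3.3, and 5.11 CPM with LFD, 1.77, 1.57, and 1.23 CPM with HFD, and 3.15, 3.27, and 4.2 CPM with HFD + EC359. The HFD libraries lay below all others. Ccl22 was 2.73-fold lower with HFD (log2 fold change -1.45, SE 0.304, adjusted p = 0.000163) and 2.32-fold higher with EC359 than with HFD alone (log2 fold change 1.22, SE 0.288, adjusted p = 0.0016). Ccr7, the lymph node homing receptor of mature dendritic cells and naive T cells, was at 4.91, 5.18, and 6.34 CPM with LFD, 2.27, 1.83, and 2.45 CPM with HFD, and 3.03, 3.05, and 2.8 CPM with HFD + EC359. It fell 2.5-fold with HFD (log2 fold change -1.32, SE 0.254, adjusted p = 5.16e-05), and with EC359 the libraries lay above those of HFD without passing the test (0.43, adjusted p = 0.245). Its ligands Ccl19, Ccl21a, Ccl21b, and Ccl21c had at most 4 counts in a library, and their nearly identical copies on chromosome 4 make these counts uncertain. Ccl27a, an epithelial ligand of T cells homing to skin, had 12, 4, and 10 counts in the LFD libraries, 3, 0, and 4 in the HFD libraries, and 5, 15, and 12 in the HFD + EC359 libraries, which is 2.46, 0.628, and 1.76 CPM with LFD, 0.378, 0, and 0.545 CPM with HFD, and 0.606, 1.69, and 1.2 CPM with HFD + EC359. The ratio of HFD to LFD was 0.199 with a 95% exact interval of 0.073 to 0.471 (log2 fold change -2.27, SE 0.656, adjusted p = 0.00422) and that of HFD + EC359 to HFD 3.86 with a 95% exact interval of 1.67 to 10.4 (log2 fold change 1.89, SE 0.638, adjusted p = 0.0258). Without HFD replicate 3, these log2 fold changes were -2.90 and 2.51. The call of Ccl27a with EC359 ended without HFD replicate 1 (2.07, adjusted p = 0.0643), HFD replicate 2 (1.33, adjusted p = 0.151), HFD + EC359 replicate 2 (1.55, adjusted p = 0.137), or HFD + EC359 replicate 3 (1.87, adjusted p = 0.0657). Ccl27a overlaps Il11ra1 on the opposite strand. Ccl25, an intestinal and thymic ligand, passed in neither comparison (-0.28, adjusted p = 0.362 with HFD, and 0.19, adjusted p = 0.604 with EC359). The T cell marker list summed to 20.25 to 24.67 CPM in the LFD group, 15.33 to 16.63 in the HFD group, and 21.55 to 24.7 in the HFD + EC359 group, lowest in the HFD group. Of its 6 tested genes 3 fell with HFD and 2 rose with EC359, where 25.8% and 12.7% of all tested genes did so. The sum of the dendritic cell list rose over the groups (54.46 to 58.72, 65.45 to 70.33, and 81.14 to 85.19 CPM). Most of that sum came from Itgax (3204 counts over all libraries, the next gene Zbtb46 1061). The median log2 fold change of the 4 tested dendritic cell genes was 0.03 with HFD and 0.17 with EC359. The epidermis list (176 to 186.5, 118.9 to 128.9, and 165.7 to 172.9 CPM), the carcinoma list, and the mast cell list were lowest in the HFD group. The part of these cells was not tested.

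**Figure D3:**
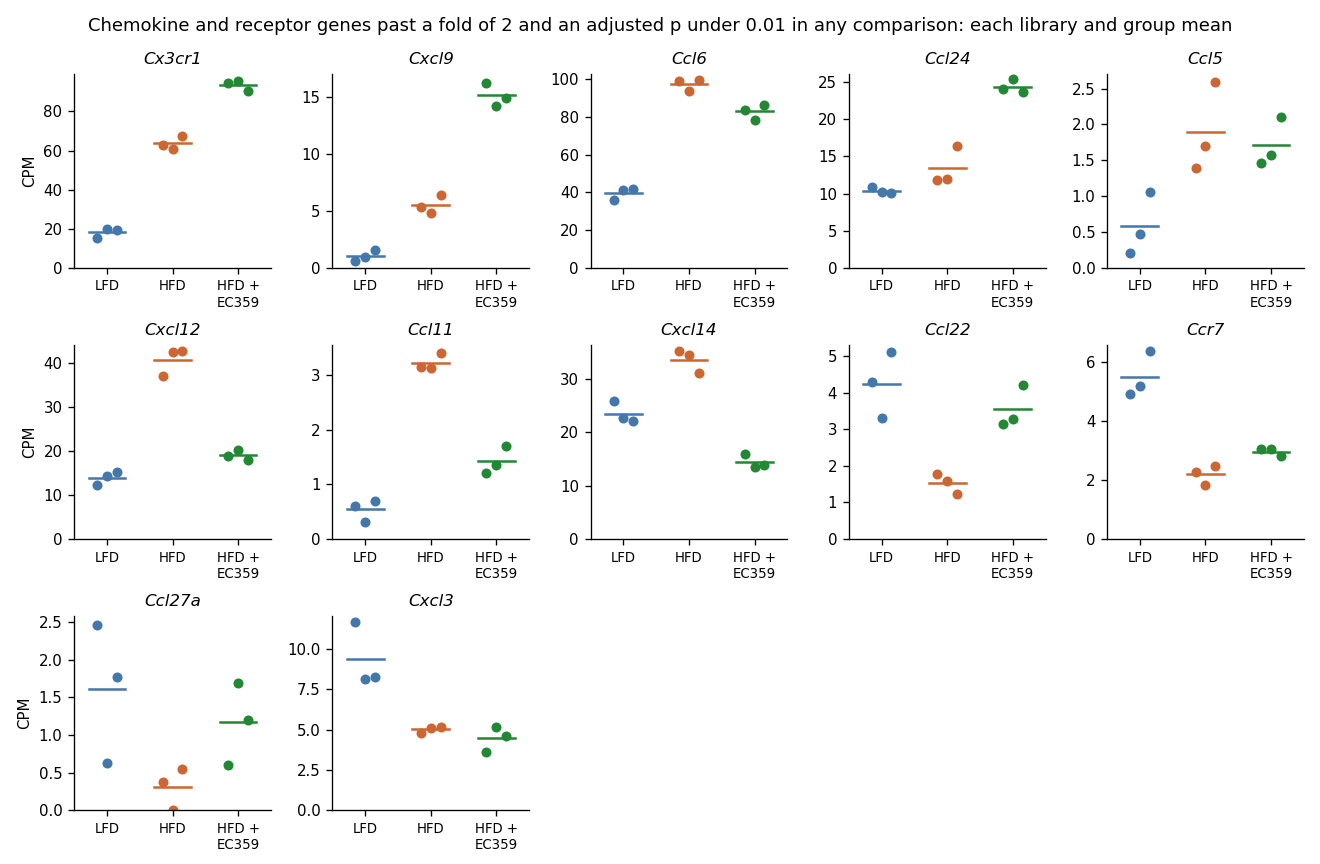
CPM of each library (points) and the group mean (line) for 12 genes that met the stricter call in any comparison, each panel on its own linear axis from 0. Cx3cr1, Cxcl9, and Ccl24 were highest in the HFD + EC359 group, Cxcl12, Ccl11, Cxcl14, and Ccl6 in the HFD group, and Ccl22, Ccr7, Ccl27a, and Cxcl3 in the LFD group.

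Genes of a cluster did not all move in 1 direction. On mm9 chromosome 5, Cxcl5, Cxcl3, Cxcl15, Cxcl1, and Cxcl2 lie between 91188325 and 91334964. Of the 4 tested, Cxcl2 and Cxcl3 fell with HFD and Cxcl1 and Cxcl5 did not pass. Cxcl9, Cxcl10, and Cxcl11 lie at 92750357 to 92792322 on the same chromosome, with log2 fold changes of 2.35 and 0.52 for the 2 tested genes with HFD. On chromosome 11, Ccl2, Ccl7, Ccl11, Ccl12, Ccl8, and Ccl1 lie between 81849079 and 81993314. With HFD, Ccl11 (81871334 to 81876457, plus strand) rose by a log2 fold change of 2.57, while Ccl7 and Ccl8 of the same cluster fell. With EC359, Ccl11 fell while Ccl2, Ccl7, and Ccl8 rose. In the other cluster of chromosome 11, at 83339281 to 83478185, Ccl5, Ccl9, and Ccl6 rose with HFD and Ccl4 fell, and Ccl3 did not pass. The receptors Ccr1 and Ccr2, in a cluster of receptor genes on chromosome 9 at 123676329 to 124041922, both rose with HFD.

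**Figure D4:**
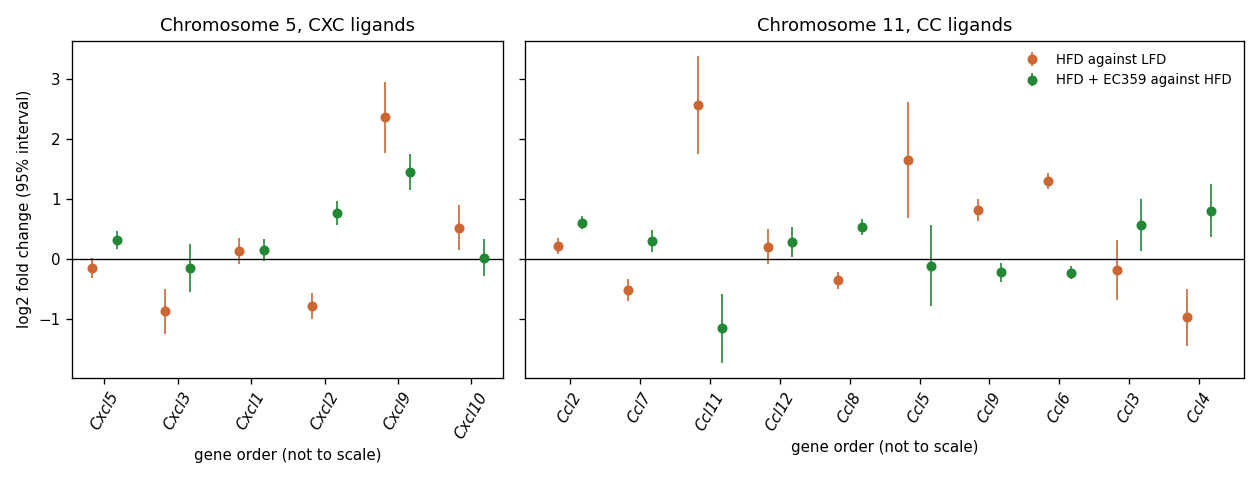
Log2 fold change with bars of the 95% interval for the tested ligands of the clusters on chromosomes 5 and 11, in gene order and not to scale. Ccl11, at 2.57 with HFD and -1.16 with EC359, lies next to Ccl7, at -0.52 and 0.30.

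In the HFD + EC359 group against the LFD group, which differ in both diet and drug, 25 of the 33 genes passed an adjusted p of 0.05, 21 higher and 4 lower, where 58.3% of all genes passed, 29.2% higher and 29.1% lower. With the GC trend removed the split was 15 higher and 6 lower. Past a fold of 2 with an adjusted p under 0.01 were 7 genes, among them Cxcl9 (log2 fold change 3.81, SE 0.242, adjusted p = 8.19e-15), Cx3cr1 (log2 fold change 2.34, SE 0.0822, adjusted p = 2.69e-21), Ccl5 (1.52, adjusted p = 0.0084), Ccl24 (1.24, adjusted p = 5.87e-10), and Ccl6 (1.06, adjusted p = 1.01e-14) as higher and Cxcl3 (-1.04, adjusted p = 2.53e-05) as lower, against 5.09% of all genes (3.66% higher and 1.43% lower). This number was 3 without LFD replicate 1, and the value of Ccl5 was 2.23 without LFD replicate 3. Ccr1 was higher by 1.99-fold (adjusted p = 2.72e-10), just outside the limit. Ccl22 (-0.23, adjusted p = 0.433), Cxcl2 (-0.03, adjusted p = 0.793), Ccl4 (-0.17, adjusted p = 0.5), and Ccl27a (-0.38, adjusted p = 0.507), which had differed between HFD and LFD, did not pass here. Cxcl12 (0.44, adjusted p = 0.00207) and Cxcr7 (0.38, adjusted p = 0.00273) were still higher than in the LFD group, and Cxcl14 (-0.69, adjusted p = 3.11e-06) and Ccr7 (-0.89, adjusted p = 0.00134) lower. Ccl2 (0.81, adjusted p = 3.08e-13), Cxcr4 (0.79, adjusted p = 6.33e-06), Cxcr2 (0.76, adjusted p = 0.000287), Cx3cl1 (0.73, adjusted p = 4.32e-07), and Ccl9 (0.59, adjusted p = 1.89e-06) were also higher. The other 8 calls each ended in fits that left out 1 library. Ccl11 (1.41, adjusted p = 0.0127) did so without LFD replicate 2 (1.09, adjusted p = 0.0939) or HFD + EC359 replicate 3 (1.24, adjusted p = 0.0575), Ccl12 (0.48, adjusted p = 0.0044) without LFD replicate 1 (0.32, adjusted p = 0.0514), and Ccr2 (0.45, adjusted p = 0.00383) without HFD + EC359 replicate 3 (0.30, adjusted p = 0.0678). The call of Cxcl10 (0.53, adjusted p = 0.0142) ended without LFD replicate 2 (0.29, adjusted p = 0.22), that of Cxcl16 (0.17, adjusted p = 0.0167) without LFD replicate 3 (0.14, adjusted p = 0.0946) or HFD + EC359 replicate 3 (0.15, adjusted p = 0.0767), and that of Cxcl1 (0.28, adjusted p = 0.023) without LFD replicate 1 or either of replicates 1 and 3 of HFD + EC359 (0.24 to 0.27, adjusted p 0.0571 to 0.0765). The call of Ccl8 (0.16, adjusted p = 0.04) ended without replicate 1 or 3 of LFD, replicate 3 of HFD, or any 1 of the HFD + EC359 libraries (0.09 to 0.17, adjusted p 0.0519 to 0.238), and the lower level of Ccl7 (-0.22, adjusted p = 0.0347) without replicate 2 or 3 of LFD or of HFD + EC359 (-0.22 to -0.20, adjusted p 0.0731 to 0.109). Without LFD replicate 2, Ccl3 (0.75, adjusted p = 0.0181) and Cxcl5 (0.28, adjusted p = 0.00456) passed as higher, whereas Cxcl5 was at -0.43 with the GC trend removed. That removal also ended the calls of Ccl8 (0.01), Cxcl1 (0.01), Ccl12 (0.07), Cxcl10 (0.32), Ccl11 (1.01), and Ccr2 (-0.10), at adjusted p of 0.0893 to 0.937, and made that of Cxcl2 (-0.38, adjusted p = 0.00178). The groups did not overlap for 25 of the 33 genes, where this held for 62.9% of all genes.

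Chemokine genes under other symbols, 8 of 10 tested, gave 5 higher and 1 lower with HFD and 3 higher and 3 lower with EC359. For this list and those that follow, 26% of all tested genes were higher and 25.8% lower with HFD. With EC359 these shares were 12.7% and 13.9%. Values with the GC and length trend removed were obtained for the genes of the symbol rule only, not for the pathway and marker lists. Darc (Ackr1), a non-signaling chemokine receptor of venules, rose with HFD (2.05, adjusted p = 0.000963) and fell with EC359 (-2.03, adjusted p = 0.000567), at low levels of 0.495, 1.999, and 0.473 CPM in the LFD, HFD, and HFD + EC359 groups. Rarres2, the chemerin precursor, had the same order (0.94, adjusted p = 5.46e-09, and -1.10, adjusted p = 7.27e-11). Mif, a cytokine that binds CXCR2 and CXCR4, rose in both comparisons (0.64, adjusted p = 5.78e-12, and 0.15, adjusted p = 0.0168), as did Cd74, its receptor and the invariant chain of MHC class II (0.29, adjusted p = 2.30e-08, and 0.73, adjusted p = 1.57e-18). Of the 27 genes of G protein signaling and migration downstream of the receptors, 6 rose and 6 fell with HFD, and 5 rose and 3 fell with EC359. Higher with HFD were Rgs1 (0.97, adjusted p = 0.0159), Gng2 (0.54, adjusted p = 1.67e-05), Itgal (0.54, adjusted p = 1.25e-07), and Rap1b (0.50, adjusted p = 2.04e-09), among others. Those lower included Grk6 (-0.42, adjusted p = 5.95e-09) and Gnai2 (-0.17, adjusted p = 7.52e-05). The list summed to 3183 to 3254 CPM in the LFD group, 3140 to 3169 in the HFD group, and 3075 to 3148 in the HFD + EC359 group. The list of regulators of chemokine transcription held inducers and also Tnfaip3 and Nfkbia, which restrain NF-kB. Of its 13 tested genes, 1 rose and 7 fell with HFD. Those that fell included Tnfaip3 (-0.47, adjusted p = 1.09e-09), Nfkb2 (-0.45, adjusted p = 3.20e-10), and Nfkbia (-0.40, adjusted p = 4.4e-09), all also NF-kB target genes. With EC359, 2 rose and 5 fell, where Tnf was higher (0.61, adjusted p = 0.0325) and Irf7 lower (-0.46, adjusted p = 0.000124). Ifng, the inducer of Cxcl9, had 10 counts in all 9 libraries and was not tested. Of 15 genes that present or cleave chemokines, 6 rose and 5 fell with HFD and 3 rose and 4 fell with EC359. Dpp4, the protease that inactivates CXCL12, CCL22, and others, rose with HFD (1.38, adjusted p = 0.000258) and fell with EC359 (-0.69, adjusted p = 0.0316), the gelatinase Mmp2 did likewise (0.45, adjusted p = 6.30e-08, and -0.73, adjusted p = 1.08e-12), Mmp12 rose in both (0.86, adjusted p = 1.52e-08, and 0.34, adjusted p = 0.00225), and the proteoglycan Sdc1 fell with HFD (-0.64, adjusted p = 1.41e-13).

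Markers of the cells that make or answer chemokines were measured in the same libraries. Beside the counts of each list, 26% of all tested genes were higher and 25.8% lower with HFD, and 12.7% higher and 13.9% lower with EC359. The leukocyte list summed to 352.9 to 362.7 CPM in the LFD group, 383.7 to 405.8 in the HFD group, and 442.9 to 461.1 in the HFD + EC359 group, the same order as the summed chemokine genes. With HFD 4 of 5 were higher and 1 lower, and Ptprc (CD45) rose in both comparisons (0.72, adjusted p = 1.98e-11, and 0.26, adjusted p = 0.00025). The macrophage and monocyte list summed to 1562 to 1585, 1491 to 1505, and 1876 to 1902 CPM. With HFD 5 of 10 rose and 2 fell, and with EC359 8 rose and none fell, including Mrc1 (0.44, adjusted p = 6.63e-12), Csf1r (0.26, adjusted p = 1.12e-06), and C1qa (0.22, adjusted p = 5.34e-05). The mast cell list summed to 87.97 to 93.72, 41.02 to 46.11, and 123.7 to 128.2 CPM, with 1 of 6 higher and 4 lower with HFD and 5 higher with EC359. Of the 4 tested dendritic cell markers, 1 was higher and 1 lower with HFD and 1 higher with EC359. NK cells had 1 of 6 markers above the filter and sums of 1.841 to 4.082, 3.135 to 5.24, and 3.611 to 5.701 CPM. The B and plasma cell list had 1 of 5, Igj with 139 counts over all libraries, and sums of 1.099 to 1.762, 5.764 to 6.809, and 1.1 to 2.595 CPM. Most of the B and plasma cell sum came from Igj. The mammary carcinoma list (Epcam, Krt8, Krt18, Krt14, Krt5, and Cdh1) was present in all libraries, as labelled, and summed to 2056 to 2223, 771.6 to 786.1, and 1143 to 1169 CPM. All 6 were lower with HFD and 5 higher with EC359. The lymphatic endothelial list summed to 20.87 to 24.8, 36.32 to 38.51, and 26.2 to 31.37 CPM, and the adipocyte list to 7.979 to 10.05, 20.83 to 24.84, and 21.71 to 25.61 CPM. Most of the adipocyte sum came from Fabp4 (1092 counts over all libraries, the next gene Plin1 84). Adipoq and Lep, with 29 and 22 counts, were below the filter. Of the 3 tested adipocyte genes, 1 was higher with HFD and none passed with EC359. The part of all these cells in the chemokine results was not tested.

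The balance of GC-poor and GC-rich genes also differed between the groups. GC-poor genes (45.8% GC or less) relative to GC-rich genes (55.4% or more), on the log2 CPM scale and centered on all libraries, stood at -0.536 in LFD replicate 1, -0.317 and -0.364 in the other LFD libraries, 0.105 to 0.156 in the HFD group, and 0.254 to 0.302 with HFD + EC359. Among the 33 tested genes, 15 were at or under the lower limit and 3 at or over the upper, with a median GC content of 46.2%. With a trend in GC content and length removed from each library, the log2 fold changes of the 33 genes moved by -0.42 to 0.22 with HFD and by -0.18 to 0.07 with EC359. Ccr2, with the lowest GC content of 38.3%, moved from 0.79 to 0.37 (adjusted p = 0.0126) with HFD, and Ccr1 from 0.64 to 0.25 (adjusted p = 0.0335). Of the genes past a fold of 2, Cx3cr1 moved from 1.79 to 1.77, Cxcl12 from 1.54 to 1.49, Ccl6 from 1.29 to 1.13, Cxcl9 from 2.35 to 2.12, and Ccl22 from -1.45 to -1.40. Ccl5 moved the other way, from 1.64 to 1.78. The genes past a fold of 2 with an adjusted p under 0.01 went from 9 to 11 with HFD. Cxcl2 (from -0.79 to -1.02) and Cxcl3 (from -0.88 to -1.12) were added.

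**Figure D5:**
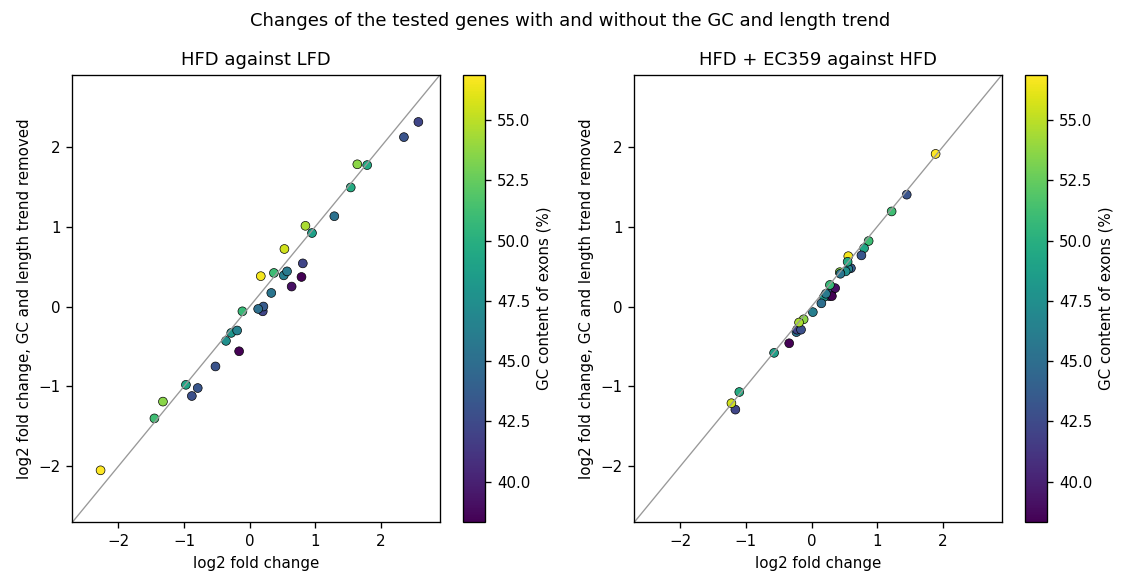
Log2 fold change of 32 tested genes as fitted (x axis) and after removal of each library's trend with GC and length (y axis), colored by GC content of the exons. Ccr2, at 0.79 and 0.37, lies below the diagonal in HFD against LFD, and all points lie within 0.18 of the diagonal in HFD + EC359 against HFD.

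The 26 genes below the filter had at most 19 counts in any library. Cxcl11, Cxcr6, Cxcr1, and Xcr1 (the receptor of cross-presenting dendritic cells) had sums over the LFD, HFD, and HFD + EC359 groups of 5, 22, and 32 counts, 6, 19, and 25 counts, 7, 10, and 21 counts, and 1, 6, and 15 counts. The library totals also rose in this order of groups. Cxcl13 reached 7 counts in a library, Ccr3 and Ccr4 reached 6, Ccr8, Ccr6, and Ccl1 reached 5, and Ccr9, Ccl21a, and Ccr10 reached 4. Ccl17, Cxcr5, Xcl1, Ccl20, Ccl21b, Ccl21c, Ccl19, Ccl27b, Cxcl15, and Ccr1l1 had at most 1 or 2. Ccl26, Ccl28, and Cxcl17 had none, which allows up to 3 counts per library. When all genes with at least 1 count were fitted, 23 of these 26 had a value. Cxcl13, a B cell attractant with 0 counts in all LFD libraries and 7, 2, and 0 in the HFD libraries, passed as higher with HFD (adjusted p = 0.0317), and Ccl21a, with 4, 4, and 0 counts and then 0 in all HFD libraries, as lower (adjusted p = 0.0108). In HFD + EC359 against LFD, Cxcl11 (1.96, adjusted p = 0.0109) and Xcr1 (1, 6, and 15 summed counts, adjusted p = 0.0356) were higher. For Cxcl13 and Ccl21a, 1 HFD library and 1 LFD library had no count, so the groups overlapped.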

How the data were processed

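Whole 4T1 tumors were profiled by stranded mRNA-seq with paired reads of 150 bp, 3 libraries per group. The values are expected counts per gene, deposited by the authors without normalization and made, per the file headers, with featureCounts 1.5.0-p1 (minimum mapping quality 2, strand setting 2, fractional counting of reads with more than 1 gene or alignment) on mm9. The submitters' processing notes name HISAT2 2.1.0, whereas the methods of the study name TopHat2 and HTSeq.

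Counts were rounded and fitted in R 4.3.3 with edgeR 4.0.16: filterByExpr left 13366 of 22609 genes, libraries were scaled with TMM factors, and 1 quasi-likelihood model over the 3 groups gave all comparisons, with Benjamini-Hochberg adjustment over all tested genes. CPM uses the scaled totals. A gene rose or fell at an adjusted p under 0.05. Intervals of count ratios are exact and two-sided and cover counting error only. On counts simulated with the fitted spread and 200 genes changed 3-fold, 192 were found for HFD against LFD (13228 genes), 196 for HFD + EC359 against HFD (13227 genes), and 194 for HFD + EC359 against LFD (13203 genes). Unchanged genes called at an adjusted p under 0.05 numbered 11, 14, and 9. Smaller changes, as most calls here are, a larger share of changed genes, and a GC trend were not simulated. The spread was that fitted to these libraries, so the numbers do not cover a wider spread between animals.

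The genes of the symbol rule are accounted for by role, except 1 tested gene that enters the counts and is not reported here by itself. Values in every library are given for those past a fold of 2 with an adjusted p under 0.01 in any comparison and for the 5 highest by CPM per kb. The genes, the pathway lists, and the marker lists were chosen with earlier results of these data known. Alternatives were DESeq2 1.42.0, other scaling and filters, a replicate block, removal of a GC and length trend, thinning to the smallest total, and leaving out each library.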

Additional observations from a re-analysis of the deposited data

How the results depend on the processing

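Of 1947 values of single genes under the alternatives, 1821 kept their direction and their side of the threshold. Of the called genes, 21 of 24 with HFD, 15 of 22 with EC359, and 17 of 25 in HFD + EC359 against LFD kept the call in every alternative that gave them a value, which was 17 to 20 of the 20. DESeq2 ended 2, 5, and 4 calls in the 3 comparisons. With at least 10 counts in every library, which tests fewer genes, the genes past a fold of 2 numbered 4 with HFD and 2 with EC359. With the GC and length trend removed they numbered 11 and 5. Leaving out 1 library gave 7 to 10, 4 to 5, and 3 to 8 such genes in the 3 comparisons, the 3 without LFD replicate 1.

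With the GC and length trend removed, and also with the replicate block added to it, the signs of some values turned. With HFD these were Ccl12 (-0.06, and -0.04 with the block) and Cxcl1 (-0.03, and -0.04 with the block). Ccl2 came to 0, just below it without the block. With EC359 it was Cxcl10 (-0.07), and in HFD + EC359 against LFD Ccr2 (-0.10) and Cxcl5 (-0.43). Thinning turned Cxcl3 with EC359 (0.01), and library totals turned Cxcl2 in HFD + EC359 against LFD (0.04). When 1 library was left out, the values crossed 0 for Ccl3 with HFD (-0.45 to 0.19), for Ccl5 (-0.31 to 0.16), Cxcl10 (-0.04 to 0.05), and Cxcr3 (-0.48 to 0.10) with EC359, and for Ccl25 (-0.32 to 0.04), Ccl27a (-0.82 to 0.02), and Cxcl2 (-0.08 to 0.02) in HFD + EC359 against LFD. The cause was not tested.

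The labels share only replicate numbers. Deviations of same-numbered libraries correlated at -0.03 to 0.017, so the numbers were not taken as pairs. The replicate block gave 16 higher and 8 lower genes with HFD and 15 and 7 with EC359, as without it, and moved the genes past a fold of 2 in HFD + EC359 against LFD from 7 to 8.

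With totals of 5085357 to 9751201 counts, the ratios of Ccl5, Ccl11, Cxcl9, and Ccl27a rest on few reads, and 26 genes fell below the filter on low counts.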
